A study of Drosophila melanogaster with 72 samples.

Results

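The features described here are the annotated genomic copies of 11 families of LTR retrotransposons in nuclear RNA of Drosophila photoreceptors. A copy was included when the name of its feature was roo, ‘297’, ‘412’, ‘17.6’, copia, mdg1, mdg3, blood, Burdock, ‘1731’ or 3S18 and its read pairs summed to at least 10 over all 72 libraries. Of 24278 features in the count files, 502 carried such a name and 430 met the minimum. The copy just inside the limit, mdg1{}45, had 10 counts, and the copy just outside it had 9. The largest family was roo with 135 copies, followed by ‘297’ with 77, copia with 35, mdg1 with 34, ‘412’ with 33, blood with 26, ‘17.6’ with 23, Burdock with 21, 3S18 with 17, mdg3 with 16 and ‘1731’ with 13. Families named by a numeral are set in quotation marks, and their copies are given by the identifier of the files. The members of a family share most of their sequence, so they are not independent replicates of one another.

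An LTR retrotransposon carries a long terminal repeat at each end, and the upstream repeat acts as the promoter from which RNA polymerase II makes a full-length transcript. That transcript encodes Gag and Pol proteins and is also the template that reverse transcriptase copies into new DNA. Flies repress these elements through Piwi-interacting RNAs in the gonad, through small interfering RNAs made by Dcr-2 and loaded on AGO2 in somatic tissue, and through heterochromatin. By sequence, roo and 3S18 belong to the Pao group, copia and ‘1731’ to the Ty1/copia group, and the other 7 families to the Ty3/mdg4 group. Set1, Trr (trithorax-related) and Trx (trithorax) are the Drosophila methyltransferases that place methyl groups on lysine 4 of histone H3, a mark found at active promoters and enhancers.

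The study asked how loss of each methyltransferase alters daily rhythms of transcription in photoreceptors. Outer photoreceptor nuclei were tagged with GFP-KASH under Rh1-Gal4, which is active in R1 to R6 cells, and were enriched with anti-GFP beads from the heads of 400 male flies per library. The flies were F1 progeny, kept in 12 h of light and 12 h of dark at 25 °C and sampled at day 10 after eclosion. Nuclear RNA was sequenced at 6 times, given as hours after lights on (zeitgeber time, ZT0 to ZT20 in steps of 4 h), with 3 replicates at each. The groups were Set1 RNAi (TRiP.HMS01837 in a y sc v stock), Trr RNAi (TRiP.HMS01019 in a y sc v sev stock), Trx RNAi (TRiP.HMS00580 in a y v stock) and mCherry RNAi, a hairpin against a gene that flies lack, in a laboratory y v stock. All hairpins were at attP2, and each was crossed to the same driver stock, which is w1118 and ry506 and carries UAS-GFP-Msp300KASH and rh1-GAL4. Transposon insertions can differ between fly stocks, so an insertion present in only some stocks cannot be told apart from an effect of the hairpin. The sources differ on the sequencing platform. The study's methods name a single one, whereas the description of the series places the mCherry and Set1 libraries on one and the Trr and Trx libraries on another, in which case platform and genotype cannot be told apart in Trr or Trx RNAi against mCherry RNAi.

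One library, Set1 RNAi ZT20 replicate 1, had a total of 687 counts and was left out, which gave 17 libraries of Set1 RNAi and 18 of each other genotype. Totals in the 71 libraries used were 8424081 to 24586538 counts, of which the 430 copies held 0.166% to 0.525%. Levels are given in CPM (counts per 1e6 counts of the library) after TMM scaling, a correction for differences in library composition, whose factors were 0.759 to 0.902 in Set1 RNAi, 1.12 to 1.31 in Trr RNAi, 1.15 to 1.36 in Trx RNAi and 0.718 to 0.894 in mCherry RNAi. The targeted genes were not uniformly depleted: the median level of trr was 295 CPM in Set1 RNAi, 110 CPM in Trr RNAi and 115.1 CPM in Trx RNAi, against 194 CPM in mCherry RNAi. That of Set1 was 247, 201 and 191 CPM against 264 CPM, and that of trx was 524, 548 and 494 CPM against 562 CPM. In Set1 RNAi, Set1 ranged from 195 to 364 CPM, against 156 to 368 CPM in mCherry RNAi. In Trx RNAi, trx ranged from 417 to 595 CPM, against 457 to 684 CPM, so both genes overlapped the control in their own knockdown. In Trr RNAi, trr ranged from 94.9 to 133 CPM, against 86.0 to 392 CPM, and it was similarly low in Trx RNAi. The 13 tested outer photoreceptor markers summed to 60506 to 91965 CPM in Set1 RNAi, 15799 to 25803 CPM in Trr RNAi and 15403 to 28695 CPM in Trx RNAi, against 66876 to 131085 CPM in mCherry RNAi. Among them ninaE had medians of 10823.5 CPM in Set1 RNAi, 3773 CPM in Trr RNAi and 4879 CPM in Trx RNAi, against 12715 CPM in mCherry RNAi. The listed marker ninaA was at 0 and was not tested. The 7 tested muscle markers summed to 48.4 to 239 CPM in Set1 RNAi, 576 to 2386 CPM in Trr RNAi and 821 to 2613 CPM in Trx RNAi, against 32.6 to 102 CPM in mCherry RNAi. Fat body markers summed to 1544 to 3410 CPM in Set1 RNAi, 9338 to 14945 CPM in Trr RNAi and 7493 to 15525 CPM in Trx RNAi, against 1726 to 4188 CPM in mCherry RNAi. In both Trr and Trx RNAi, 4 of 4 inner photoreceptor, 4 of 6 fat body, 4 of 6 glia, 4 of 7 brain neuron, 3 of 5 lens and pigment cell and 3 of 3 hemocyte markers were also called higher. In each, 1 brain neuron and 1 lens and pigment cell marker were called lower. Lens and pigment cell markers summed to 241 to 510 CPM in Trr RNAi and 255 to 560 CPM in Trx RNAi, against 415 to 5481 CPM in mCherry RNAi. Sums for brain neurons (1747 to 2574 and 1680 to 2328 CPM against 1545 to 2659 CPM) and glia (408 to 552 and 426 to 541 CPM against 164 to 1309 CPM) overlapped the control. Of 2 tested germ line markers, bru1, which also acts in muscle, was higher (2.0 on the log2 scale in each) and stet lower (-1.43 and -1.28) in Trr and Trx RNAi, while bam, osk and vas were near 0. The mitochondrial chromosome held 0.0491% to 0.132% of counts in Set1 RNAi, 0.237% to 0.62% in Trr RNAi and 0.232% to 0.701% in Trx RNAi, against 0.0426% to 0.138% in mCherry RNAi. Fewer cells of a type and less RNA per cell cannot be told apart in such bulk libraries.

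Read pairs were counted without strand and only where they matched 1 place in the genome and 1 feature. A copy therefore gains reads from any transcript that crosses it and loses reads that another near-identical copy could have given, so its value can lie above or below the expression of the copy itself. Of the 430 copies, 191 lay outside every gene, 110 inside a gene on the same strand and 129 inside a gene on the opposite strand, mostly in introns, since 36 overlapped an exon. They lay on chromosome 3L (99 copies), 2R (90), X (88), 2L (73), 3R (72), Y (4) and 4 (4) of BDGP6.46. Median copy length was 9002 bp for roo, 7500 bp for ‘412’, 7438 bp for ‘17.6’, 7411 bp for blood, 7344 bp for mdg1 and 5146 bp for copia, near the full length of such elements. The median was 311 bp for ‘1731’, whose members were mostly fragments.

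A median copy had 2507 counts in all and a mean level of 2.53 CPM, or 0.675 CPM per kb. The 5 copies with the most counts held 29.4% of all counts on the 430. The highest, roo{}339 (FBti0019148, 2L:10946999-10956155, in the span of dpr2 on the opposite strand), held 15.6% and had a mean of 49.2 CPM per kb. Its level was uneven among replicates: the lowest, median and highest values were 147, 414 and 1258 CPM in Set1 RNAi, 130, 454 and 925 CPM in Trr RNAi, 133, 250 and 580 CPM in Trx RNAi, and 41.7, 472 and 1937 CPM in mCherry RNAi. The 3 mCherry RNAi replicates at ZT12 alone had 1937, 563 and 223 CPM, so the genotypes overlapped and roo{}339 passed no test of mean expression. The next, ‘1731’ copy RR43083 (3L:25368649-25373298, in lovit on the opposite strand), had 59.3 CPM per kb and held 87.3% of the counts of the ‘1731’ family. Per kb, the highest levels were those of 3 fragments in introns, Burdock{}3264 of 107 bp in p120ctn (121 CPM per kb), ‘1731’ copy FBti0060292 of 35 bp in simj (83.7 CPM per kb) and ‘1731’ copy FBti0063442 of 38 bp in CG42238 (64.6 CPM per kb).

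Summed over the copies of a family, LTR expression was lower in Trr and Trx RNAi than in mCherry RNAi for 8 of 11 families, and copia was higher in Set1 RNAi. The 430 copies together gave 3963 ± 435 CPM in Set1 RNAi (SD, n = 17), 2211 ± 576 CPM in Trr RNAi and 1977 ± 264 CPM in Trx RNAi, against 4623 ± 1058 CPM in mCherry RNAi (SD, n = 18 each). Trx RNAi libraries did not overlap the mCherry RNAi libraries (highest 2493 CPM against lowest 2499 CPM), while Set1 and Trr RNAi libraries did. The family roo, without its uneven roo{}339, summed to 1243 ± 176 CPM in Set1 RNAi, 696 ± 176 CPM in Trr RNAi and 680 ± 88.9 CPM in Trx RNAi, against 1861 ± 631 CPM in mCherry RNAi. Here too only Trx RNAi stood clear of the control, with a highest library of 794 CPM against a lowest of 1010 CPM. Sums for ‘17.6’, an element with an envelope-like reading frame, were 253 ± 65.4 CPM in Set1 RNAi, 53.8 ± 16.3 CPM in Trr RNAi and 52.9 ± 7.29 CPM in Trx RNAi, against 175 ± 51.3 CPM in mCherry RNAi. The family copia gave 459 ± 251 CPM in Set1 RNAi, 238 ± 64.0 CPM in Trr RNAi and 231 ± 28.2 CPM in Trx RNAi, against 219 ± 75.2 CPM in mCherry RNAi. The log2 ratios of these means over mCherry RNAi were -0.58, -1.42 and -1.45 for roo without roo{}339, 0.53, -1.70 and -1.73 for ‘17.6’, and 1.07, 0.12 and 0.07 for copia in Set1, Trr and Trx RNAi.

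**Figure D1:**
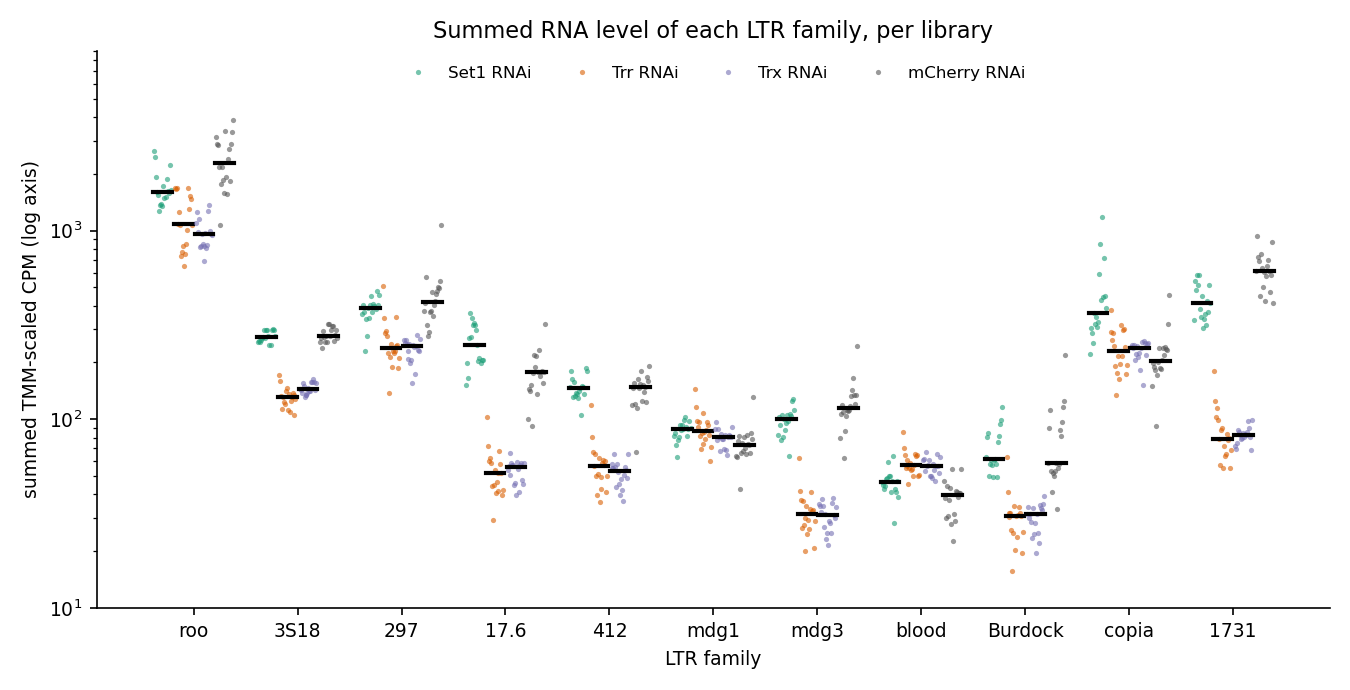
Summed level of each LTR family in each of 71 libraries, in TMM-scaled CPM on a log axis, by genotype. Points are libraries and black bars are medians; the medians of all 11 families together are 3909 CPM in Set1 RNAi, 2094 CPM in Trr RNAi, 1995 CPM in Trx RNAi and 4525 CPM in mCherry RNAi, and copia in Set1 RNAi has a median of 367 CPM against 204 CPM in mCherry RNAi.

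The plot of summed family levels shows that the families split into those low in Trr and Trx RNAi and those that were not. The log2 ratio of mdg3 was -1.90 in Trr RNAi and -1.98 in Trx RNAi, and that of ‘412’ was -1.30 and -1.47. For 3S18 it was -1.10 and -0.94, with no overlap between either knockdown and mCherry RNAi, but -0.48 and -0.24 with overlap when library totals replaced TMM. The steepest ratio, that of ‘1731’ (-2.85 and -2.92), came from ‘1731’ copy RR43083: without that copy the family averaged 29.4 CPM in Trr RNAi and 28.4 CPM in Trx RNAi, against 23.8 CPM in mCherry RNAi. By contrast, blood averaged 59.0 CPM in Trr RNAi and 56.6 CPM in Trx RNAi, against 38.5 CPM in mCherry RNAi, and mdg1 averaged 90.0 and 80.1 CPM against 74.5 CPM. The mdg1 ratio was not stable to position, at 0.27 and 0.10 over all copies but -0.33 and -0.30 over the copies outside gene spans. Family sums scaled by library totals also gave log2 ratios of -0.41 and -0.59 for roo and 0.75 and 0.79 for copia in Trr and Trx RNAi. On that scale the sum of all families, at -0.43 and -0.52, overlapped the control in both, and the families wholly below it were ‘1731’ in both and mdg3 in Trx RNAi. The family blood lay wholly above the control in both, at 1.24 and 1.25.

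To compare single copies, edgeR's quasi-likelihood test was fitted to the 14767 features whose replicates all reached 1 CPM at some genotype and time. A difference between genotypes, averaged over the 6 times, was called where the Benjamini-Hochberg adjusted p was under 0.01 and the fold change was at least 1 in size on the log2 scale. Of the 430 copies 341 were tested and 89 were too low. Among those tested, 252 met the minimum in every genotype and 32 in only 1 genotype (13 through Set1, 8 through Trr, 3 through Trx and 8 through mCherry RNAi), which had to differ to be there. All comparisons against mCherry RNAi share the same control libraries.

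A majority of the tested copies fell in Trr RNAi and in Trx RNAi, and most of those that fell were roo. In Trr RNAi 175 of 341 copies fell and 25 rose, whereas over all features 17.9% fell and 28.5% rose. In Trx RNAi 176 copies fell and 26 rose, with 18.7% of all features lower and 28.5% higher. The median log2 fold change of the copies was -1.11 in Trr RNAi and -1.05 in Trx RNAi, beside 0.08 and 0.09 over all features. Among the 252 copies that met the minimum in every genotype, 136 fell and 10 rose in Trr RNAi, and 141 fell and 8 rose in Trx RNAi. Restricted to the 293 copies that overlap no other feature, the numbers were 145 and 21 in Trr RNAi and 147 and 22 in Trx RNAi.

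Of 117 tested roo copies, 99 fell in Trr RNAi and 100 in Trx RNAi, with median log2 fold changes of -1.65 and -1.59. The element roo is among the most numerous LTR families of the fly genome. Where a copy lay made little difference to these counts. Outside genes 31 of 38 roo copies fell in Trr RNAi (median -1.62), inside a gene on the opposite strand 34 of 38 (median -1.66), and inside a gene on the same strand 34 of 41 (median -1.67). The corresponding counts in Trx RNAi were 33, 33 and 34. Of the 107 roo copies of 5 kb or more, 92 fell in Trr RNAi and 94 in Trx RNAi, as did 7 and 6 of the 10 shorter ones. The exceptions that rose were roo{}850, roo{}2355 and roo{}4147 in Trr RNAi and the first 2 of these in Trx RNAi (roo{}2355, in AGO3 and chosen after its values were seen, had log2 fold changes of 1.55 and 1.45).

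Falls also made up most of the calls in ‘412’, mdg3, ‘17.6’ and Burdock. In Trr RNAi 18 of 27 tested copies of ‘412’ fell (median log2 fold change -1.27), 9 of 12 of mdg3 (-2.08), 12 of 21 of ‘17.6’ (-1.24) and 6 of 10 of Burdock (-1.30). In Trx RNAi the counts were 18 of ‘412’ (-1.51), 9 of mdg3 (-2.06), 10 of ‘17.6’ (-0.99) and 6 of Burdock (-1.42). The family ‘297’ was more mixed, with 18 of 58 copies lower and 7 higher in Trr RNAi and 21 lower and 8 higher in Trx RNAi. In 3S18, 5 of 12 fell and 2 rose in Trr RNAi, and 4 fell and 3 rose in Trx RNAi. Members of ‘1731’ numbered 3 of 8 lower and 1 higher in Trr RNAi, and 2 lower and 1 higher in Trx RNAi.

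The families blood, mdg1 and copia did not follow. No blood copy fell in Trr or Trx RNAi by edgeR or DESeq2 (1 copy was lower at an unadjusted p under 0.05 in each), while 5 of 21 rose in Trr RNAi and 2 in Trx RNAi, among them blood{}RR48405 in Myo81F (log2 fold change 1.93 and 1.85, chosen after its values were seen). The longest tested blood copy, blood{}2438, lies in lncRNA:flam, the flamenco locus that gives rise to Piwi-interacting RNAs against Ty3/mdg4 elements, and had mean levels of 0.882 CPM in Set1 RNAi, 0.948 CPM in Trr RNAi and 0.786 CPM in Trx RNAi, against 0.762 CPM in mCherry RNAi, with no call. Of 24 mdg1 copies 3 rose and 3 fell in each of Trr and Trx RNAi. Of 31 copia copies 2 rose and 2 fell in Trr RNAi, and 2 rose and 3 fell in Trx RNAi. As set out above, the outer photoreceptor markers were lower in the same 2 genotypes. The mitochondrial share and most markers of muscle and fat body were higher there, with some markers of several other cell types. In Trr and Trx RNAi 13 of 13 and 12 of 13 photoreceptor markers were called lower (median -2.45 and -2.54). Of 7 muscle markers, 6 were called higher in each (median 4.47 and 4.62), and 1 was called lower in Trr RNAi. The part of these differences in the falls of LTR copies was not tested.

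**Figure D2:**
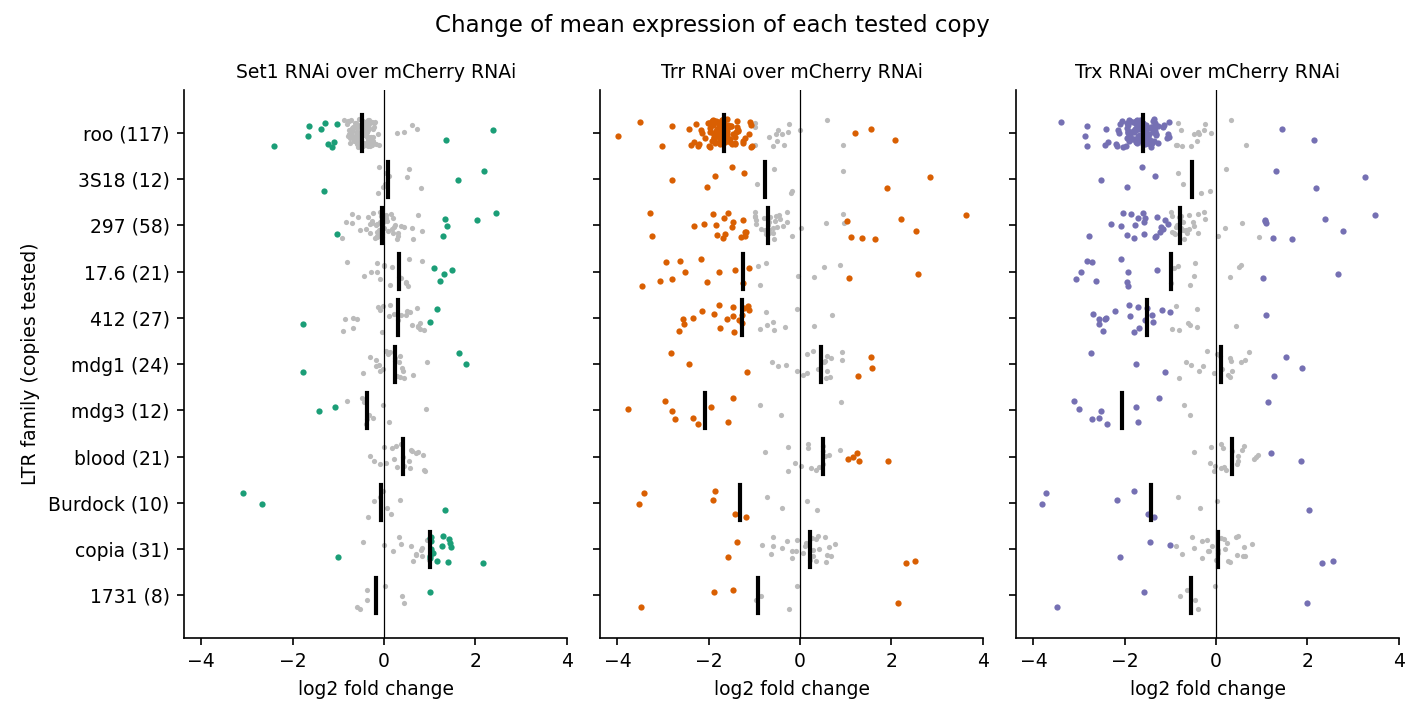
Log2 fold change of every tested copy against mCherry RNAi, by family, with a panel for each knockdown. Coloured points are copies past the thresholds, grey points are the others, and black bars are family medians, which for roo are -0.47 in Set1 RNAi, -1.65 in Trr RNAi and -1.59 in Trx RNAi, and for copia 1.0, 0.22 and 0.05.

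The size of the shift in Trr and Trx RNAi depended on the scaling. With library totals in place of TMM, the median of all features moved to 0.71 in Trr RNAi and 0.78 in Trx RNAi, 111 copies fell and 60 rose in Trr RNAi, and 88 fell and 56 rose in Trx RNAi. Relative to the median of all features, the roo median was -1.73 and -1.68, beside -1.74 and -1.68 with TMM. After removal of 3 factors of unwanted variation, 50 copies fell and 39 rose in Trr RNAi and 42 fell and 38 rose in Trx RNAi, and the roo median relative to all features was -0.60 and -0.51. The median of all 341 tested copies relative to all features was then only -0.13 and -0.07, beside -1.19 and -1.13 in the main fit. With 1 factor removed it was -1.12 and -1.10.

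In Set1 RNAi the LTR families moved in different directions, and the clearest change was a rise of copia. Over all families 35 copies rose and 18 fell, where 7.26% of all features rose and 1.66% fell. Of these calls, 7 rises and 5 falls were of copies that met the minimum in only 1 genotype, which had to differ to be tested. Of 31 copia copies 16 rose and 29 had a log2 fold change above 0, with a median of 1.0. The 1 copia copy that fell was copia{}997, at -1.0 and chosen after its values were seen. Of 21 copies of ‘17.6’, 4 rose (‘17.6’ copy FBti0020227, ‘17.6’ copy FBti0018862, ‘17.6’ copy FBti0059975 and ‘17.6’ copy FBti0063581, the last 3 chosen after their values were seen), and 5 of 58 copies of ‘297’ rose. A shift to lower levels was seen in roo: 111 of 117 copies were below 0, with a median of -0.47, where the median of all features was 0.01, but only 9 passed both thresholds. At most 2 copies passed in either direction in each of 3S18, ‘412’, mdg1, mdg3, blood, Burdock and ‘1731’. The outer photoreceptor markers summed to values that overlapped those of mCherry RNAi (60506 to 91965 CPM against 66876 to 131085 CPM). Their median log2 fold change was -0.37, with 0 of 13 called in either direction, and their part in the shift of roo was not tested.

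Among copia copies, copia{}631 (FBti0018967, 2R:5217753-5222897, in an intron of Nipped-A on the opposite strand) was high in all 3 knockdowns. Its lowest, median and highest levels were 6.73, 11.3 and 34.0 CPM in Set1 RNAi, 8.10, 14.0 and 28.1 CPM in Trr RNAi, and 9.53, 14.7 and 17.59 CPM in Trx RNAi, against 1.36, 2.71 and 7.59 CPM in mCherry RNAi. Trr and Trx RNAi libraries lay wholly above the control, and the lowest Set1 RNAi libraries fell within its upper range. The log2 fold changes were 2.16 ± 0.141 in Set1 RNAi (SE, edgeR adjusted p = 2.38e-19), 2.33 ± 0.137 in Trr RNAi and 2.33 ± 0.137 in Trx RNAi (both edgeR adjusted p = 1.32e-22), while the fold changes of Nipped-A, a subunit of the SAGA and Tip60 complexes, were 0.12, -0.44 and -0.57. Other copia copies rose only in Set1 RNAi, such as copia{}293 (FBti0019110, 2L:2294097-2299243, 860 bp from CG31949), chosen after its values were seen. It had 42.6, 65.1 and 283 CPM in Set1 RNAi against 8.50, 30.5 and 70.5 CPM in mCherry RNAi (lowest, median and highest), overlapping ranges with a log2 fold change of 1.45 ± 0.136 (SE, edgeR adjusted p = 2.01e-13).

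Several copies were far lower in all 3 knockdowns than in mCherry RNAi. The most abundant of them was roo{}1189 (FBti0019285, 3R:4366813-4375137, 8325 bp, outside every gene). Its lowest, median and highest levels were 6.36, 8.88 and 11.5 CPM in Set1 RNAi, 3.33, 5.61 and 12.7 CPM in Trr RNAi, and 4.88, 7.06 and 8.09 CPM in Trx RNAi, against 20.1, 47.7 and 92.4 CPM in mCherry RNAi. No library of any knockdown reached the lowest control library, and log2 fold changes were -2.40 ± 0.101, -3.02 ± 0.098 and -2.81 ± 0.0968 (SE, edgeR adjusted p = 1.88e-27, 1.98e-34 and 3.2e-33) in Set1, Trr and Trx RNAi. The same direction was shared by a pair of Burdock copies on the same chromosome arm, with knockdown medians under the filter's 1 CPM. A copy that meets the filter through mCherry RNAi alone had to be lower in the knockdowns, so the falls of this pair are only described. Burdock{}1187 (FBti0019283, 3R:4270790-4277202, in the span of flip) had medians of 0.299 CPM in Set1 RNAi, 0.203 CPM in Trr RNAi and 0.162 CPM in Trx RNAi, against 2.6 CPM in mCherry RNAi, and the highest library of any knockdown, 0.895 CPM, was just above the lowest control library, 0.871 CPM. Burdock{}1221 (FBti0019305, 3R:5446016-5452418, in CG14669) had medians of 0.282, 0.189 and 0.158 CPM against 2.34 CPM, with log2 fold changes of -2.68, -3.52 and -3.80. The host genes did not fall with them: the log2 fold changes were 0.13, 0.81 and 0.61 for flip and 0.28, 1.6 and 1.37 for CG14669. A fragment of 242 bp, mdg3{}459 on 2L, had 2 counts over all Set1 RNAi libraries, 30 in Trr RNAi and 3 in Trx RNAi, against 145 in mCherry RNAi, and was chosen after its values were seen. Whether these insertions are present in each stock was not tested.

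The ‘1731’ copy RR43083 was called lower only in Trr and Trx RNAi, where its host was also lower. This copy had a lower median in Set1 RNAi too, with a range that overlapped the control. Its lowest, median and highest levels were 279, 388 and 556 CPM in Set1 RNAi, 29.4, 52.4 and 137 CPM in Trr RNAi, and 39.2, 54.3 and 68.6 CPM in Trx RNAi, against 389, 588 and 916 CPM in mCherry RNAi. Neither Trr nor Trx RNAi overlapped the control, with log2 fold changes of -3.47 ± 0.101 in each (SE, edgeR adjusted p = 1.21e-36 and 1.04e-36). The host lovit, which encodes a transporter needed for histamine at photoreceptor synapses, lies on the opposite strand and changed by -2.69 and -2.76, and reads of the copy and of the host transcript cannot be told apart without strand. A copy on the other side, roo{}850 (FBti0019996, 2R:17818916-17827837, in grh on the opposite strand, with 13.9% of its bases on exons), was higher in all 3 knockdowns. Its lowest, median and highest levels were 2.26, 15.7 and 36.6 CPM in Set1 RNAi, 18.1, 23.6 and 30.02 CPM in Trr RNAi, and 19.5, 24.6 and 30.3 CPM in Trx RNAi, against 1.74, 5.80 and 12.6 CPM in mCherry RNAi. Trr and Trx RNAi lay above every control library and Set1 RNAi overlapped it, with log2 fold changes of 1.36 ± 0.102, 2.08 ± 0.0975 and 2.14 ± 0.0976 (SE, edgeR adjusted p = 6.65e-17, 5.96e-27 and 1.67e-27), while grh, a transcription factor of epithelial cells, had 1.45, 2.28 and 2.19. Likewise ‘1731’ copy FBti0061810, inside lncRNA:CR44997, had log2 fold changes of 2.15 in Trr RNAi and 1.98 in Trx RNAi beside 2.19 and 2.12 for that RNA.

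**Figure D3:**
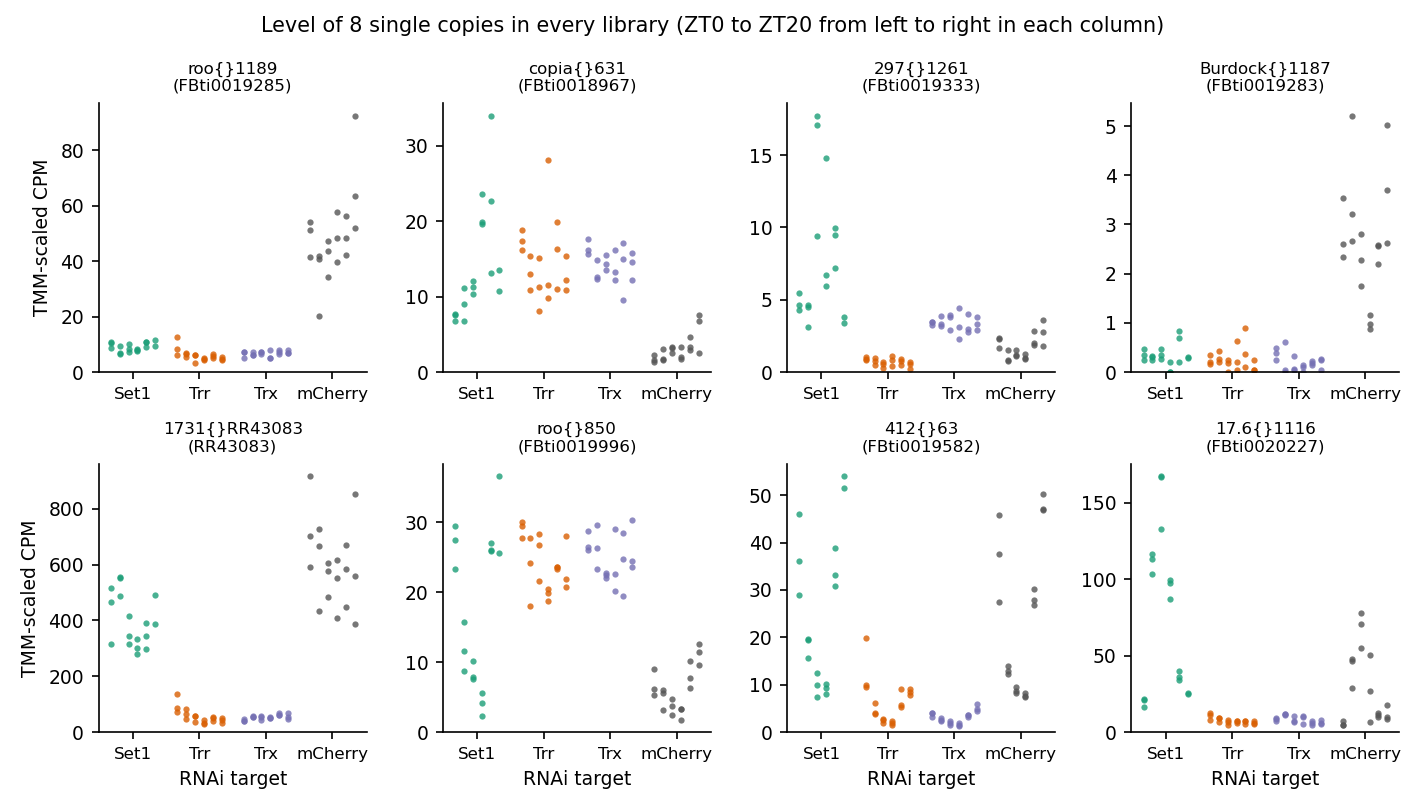
Level of 8 copies in every library, in TMM-scaled CPM, by genotype. Points are libraries, placed from ZT0 to ZT20 within each column, and roo{}1189 has medians of 8.88, 5.61 and 7.06 CPM in Set1, Trr and Trx RNAi against 47.7 CPM in mCherry RNAi, and ‘297’ copy FBti0019333 has 5.94, 0.741 and 3.33 CPM against 1.62 CPM.

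Over all copies inside a tested host gene, the fold changes of copy and host were loosely related. Across 103 copies on the opposite strand, Pearson's r and Spearman's rho were 0.31 and 0.32 in Set1 RNAi, 0.40 and 0.28 in Trr RNAi and 0.34 and 0.26 in Trx RNAi. Across 95 copies on the same strand they were -0.04 and -0.06, 0.30 and 0.25, and 0.24 and 0.21. These are descriptions across copies of the same libraries, and copies are not independent replicates. Of the 46 same-strand copies that fell in Trr RNAi, 13 had a host that fell and 22 a host that rose, and of the 57 opposite-strand copies 12 and 15. The median host change was 1.32 for same-strand hosts and 0.46 for opposite-strand hosts, where the copies had -0.96 and -1.18.

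Trr and Trx RNAi differed little from each other. Between them 2 copies were higher and 4 lower in Trr RNAi, where 0.42% and 0.718% of all features were called, and the median log2 fold change of the copies was -0.001. The largest difference among them was in ‘297’ copy FBti0019333 (3R:8090593-8094012, 112 bp from CG7900 and outside its span). Its lowest, median and highest levels were 0.194, 0.741 and 1.13 CPM in Trr RNAi against 2.31, 3.33 and 4.39 CPM in Trx RNAi, which did not overlap, with a log2 fold change of -2.31 ± 0.144 (SE, edgeR adjusted p = 2.52e-19). In Set1 RNAi the values were 3.10, 5.94 and 17.7 CPM and in mCherry RNAi 0.761, 1.62 and 3.57 CPM, so this copy fell in Trr RNAi (-1.24) and rose in Trx RNAi (1.07) and Set1 RNAi (2.04). Also lower in Trr RNAi than in Trx RNAi were Burdock{}836 near mir-137 (-1.65), ‘17.6’ copy FBti0018861 in sqa (-1.53) and roo{}193 in bves (-1.12), the last 2 outside the rule for named copies. Those higher in Trr RNAi were mdg1{}831 in hbs (1.38) and roo{}4147 (1.31). The copy roo{}4147, 381 bp from a histone H3 gene, ranged from 7.09 to 81.9 CPM in Trr RNAi, overlapping its range of 4.81 to 30.3 CPM in Trx RNAi.

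The copies also varied with the time of day. A 24 h rhythm was tested with cosine and sine terms within each genotype and called at an edgeR adjusted p under 0.05, and the amplitude is the fitted log2 difference between peak and trough. In Set1 RNAi 98 of 341 copies were rhythmic (34.1% of all features), in Trr RNAi 26 (5.88% of all features) and in Trx RNAi 7 (4.06% of all features). In mCherry RNAi 198 copies were rhythmic, beside 42.6% of all features, and 169 of the 198 (85.4%) peaked between ZT16 and ZT24, late in the dark phase, beside 39.5% of all rhythmic features. Leaving out replicates 1, 2 and 3 of every group in turn gave 85, 53 and 56 in Set1 RNAi, 6, 11 and 22 in Trr RNAi, 8, 4 and 7 in Trx RNAi, and 185, 147 and 143 in mCherry RNAi. The 7 in Trx RNAi were roo{}944, ‘297’ copy FBti0020008, ‘297’ copy FBti0060920, mdg1{}2515, ‘17.6’ copy FBti0059975, 3S18{}2922 and ‘412’ copy FBti0019582, of which ‘297’ copy FBti0060920, 3S18{}2922 and ‘412’ copy FBti0019582 come under the rule for named copies and the others were chosen after their values were seen.

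**Figure D4:**
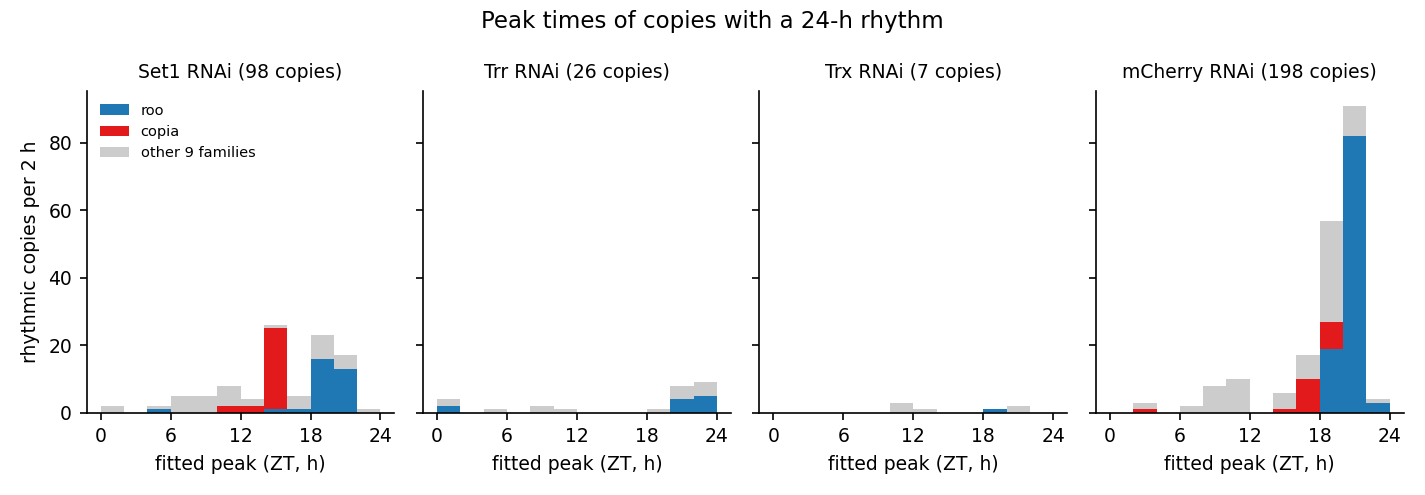
Number of rhythmic copies by fitted peak time, in hours after lights on, with a panel for each genotype and colours for roo, copia and the other 9 families. In Set1 RNAi the 28 rhythmic copia copies peak between ZT10.4 and ZT15.7, and in mCherry RNAi all 104 rhythmic roo copies peak between ZT18.4 and ZT22.5.

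The night peak was most uniform in roo. Of 117 tested roo copies 104 were rhythmic in mCherry RNAi, all with peaks between ZT18.4 and ZT22.5 (median ZT20.7), and their median amplitude was 1.14. Without roo{}339, the roo sum averaged 1408, 1045, 1106, 1169, 1315 and 1503 CPM at ZT0, 4, 8, 12, 16 and 20 in Set1 RNAi. In Trr RNAi the means were 997, 692, 582, 578, 727 and 602 CPM, and in Trx RNAi 751, 681, 658, 595, 689 and 705 CPM, against 2378, 1316, 1459, 1384, 1838 and 2788 CPM in mCherry RNAi. At ZT20 the 3 replicates of mCherry RNAi had 2239, 2565 and 3560 CPM, all above its 3 at ZT4, which had 1633, 1010 and 1305 CPM. Over all 117 tested copies the median fitted amplitude was 0.55 in Set1 RNAi, 0.56 in Trr RNAi and 0.31 in Trx RNAi, against 1.11 in mCherry RNAi, and 32, 11 and 1 copies were rhythmic in the knockdowns. By the test of the difference itself, the interaction of genotype with the cosine and sine terms (edgeR adjusted p under 0.05), the rhythm differed from mCherry RNAi in 8 of the 117 in Set1 RNAi, 34 in Trr RNAi and 53 in Trx RNAi, beside 3.6%, 21% and 17.57% of all features. Of rhythmic roo copies with a tested host gene, 17 of 34 on the same strand and 18 of 32 on the opposite strand had a rhythmic host, whose peak lay within 4 h of that of the copy for 8 and 12 of them.

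Most copia copies were rhythmic in Set1 RNAi. Of 31 copies 28 were rhythmic in Set1 RNAi, with a median peak at ZT14.9 and a median amplitude of 1.68, against 20 rhythmic in mCherry RNAi, with a median peak at ZT17.5 and a median amplitude of 1.10. By the interaction test the rhythm differed between Set1 and mCherry RNAi in 2 of the 31, beside 3.6% of all features. The copia sums averaged 270, 314, 328, 625, 783 and 419 CPM at ZT0 to ZT20 in Set1 RNAi, against 180, 149, 209, 210, 232 and 336 CPM in mCherry RNAi. The replicates at ZT16 in Set1 RNAi differed widely, at 1183, 447 and 719 CPM. By edgeR 0 copia copies were rhythmic in Trr or Trx RNAi (5 and 0 at an unadjusted p under 0.05), where sums ranged from 176 to 311 CPM and from 221 to 242 CPM over the 6 time points.

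**Figure D5:**
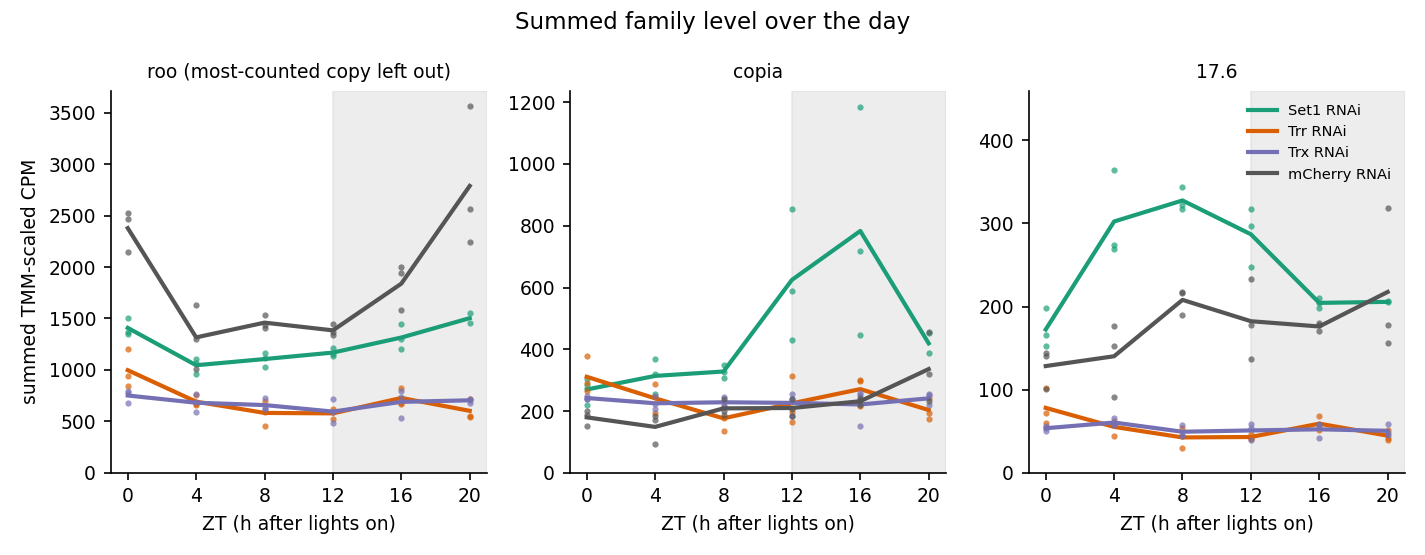
Summed level by time of day for roo without its most-counted copy (134 copies), copia (35) and ‘17.6’ (23), in TMM-scaled CPM, by genotype. Points are replicates, lines join their means, and grey marks the dark phase; Set1 RNAi means of copia are highest at ZT16 (783 CPM), and mCherry RNAi means of roo are lowest at ZT4 (1316 CPM) and highest at ZT20 (2788 CPM).

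Over all families, by the same interaction test, the rhythm differed from mCherry RNAi in 84 copies in Trx RNAi, 69 in Trr RNAi and 16 in Set1 RNAi at an edgeR adjusted p under 0.05, beside 17.57%, 21% and 3.6% of all features. Most of those in Trx RNAi were roo. These counts moved with single replicates of the whole design, to 38, 15 and 36 copies in Trx RNAi without replicates 1, 2 and 3, to 89, 14 and 33 in Trr RNAi and to 10, 2 and 0 in Set1 RNAi. Without mCherry RNAi ZT20 replicate 3, the library with the highest roo sum, 56 copies differed in Trx RNAi, and 166 were rhythmic in mCherry RNAi.

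The ‘412’ copy FBti0019582 (X:5524896-5528701) was rhythmic in all genotypes and peaked at night. In Trr RNAi its replicates had 1.63, 1.99 and 2.41 CPM at ZT12 and 9.23, 7.91 and 8.60 CPM at ZT20 (amplitude 2.6), and in Trx RNAi 1.29, 1.44 and 1.92 CPM and 4.97, 4.41 and 5.87 CPM (amplitude 1.53). In mCherry RNAi they had 7.55, 8.26 and 7.49 CPM at ZT12 and 47.0, 50.2 and 46.8 CPM at ZT20, an amplitude of 2.8 with a peak at ZT20.8 (edgeR adjusted p = 1.33e-16). So the mean level fell, by 1.88 in Trr RNAi and by 2.70 in Trx RNAi on the log2 scale, and only the Trx RNAi rhythm differed from the control (edgeR adjusted p = 0.00716). In Set1 RNAi the amplitude was 2.64 with a peak at ZT20.8.

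A day peak was seen in ‘17.6’ copy FBti0020227 (3L:23072281-23079602, outside every gene). Its replicates had 16.3, 21.9 and 21.4 CPM at ZT0 and 167, 133 and 167 CPM at ZT8 in Set1 RNAi, and 4.75, 7.21 and 4.57 CPM at ZT0 and 54.9, 71 and 77.9 CPM at ZT8 in mCherry RNAi. At ZT8 in Trr RNAi they had 4.59, 6.61 and 8.36 CPM and in Trx RNAi 10.9, 7.36 and 7.06 CPM, so the peak of the control was missing there. The amplitude was 3.09 in Set1 RNAi and 2.94 in mCherry RNAi, with peaks at ZT8.3 and ZT8.1, and the rhythm differed from the control both with Trr hairpins (edgeR adjusted p = 4.25e-06) and with Trx hairpins (0.000355). The mean level rose in Set1 RNAi (1.49 ± 0.127) and fell in Trr RNAi (-1.41 ± 0.128) and Trx RNAi (-1.29 ± 0.127, SE on the log2 scale).

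Similar times were seen for copies that lie close together on 2R. ‘297’ copy FBti0060920 (2R:4999975-5001673, in Ir41a on the opposite strand) was rhythmic in all genotypes with peaks at ZT9.5 in Set1 RNAi, ZT8.6 in Trr RNAi, ZT11.3 in Trx RNAi and ZT9.5 in mCherry RNAi. Its lowest, median and highest levels were 7.39, 22.4 and 47.1 CPM in Set1 RNAi, 0.310, 0.735 and 3.44 CPM in Trr RNAi, and 0.298, 0.930 and 4.21 CPM in Trx RNAi, against 2.49, 6.74 and 29.2 CPM in mCherry RNAi. It rose in Set1 RNAi (1.30) and fell in Trr and Trx RNAi (-3.25 and -2.77), and its host Ir41a, an ionotropic receptor gene, had fold changes of 1.08, -3.22 and -2.69. Farther along the arm and outside genes, 3S18{}2922 (FBti0060983, 2R:5076483-5078623) peaked at ZT10.6, ZT9.9, ZT11.5 and ZT11.1 in Set1, Trr, Trx and mCherry RNAi and had fold changes of 1.62, -2.79 and -2.51. Nearby mdg3{}5968 (FBti0064029, 2R:4905159-4905302, a fragment of 144 bp in CG44102) fell by 3.77 in Trr RNAi and by 3.00 in Trx RNAi, beside -3.0 and -2.70 for CG44102.

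Other copies changed their rhythm by losing amplitude. In Set1 RNAi roo{}34 (FBti0019553, X:3218561-3227651, in dnc on the opposite strand) had 13.8, 12.0 and 12.0 CPM at ZT12 and 24.3, 14.6 and 14.6 CPM at ZT0, an amplitude of 0.67, while in mCherry RNAi it had 17.0, 17.3 and 17.1 CPM at ZT12 and 63.4, 61.6 and 57.4 CPM at ZT0, an amplitude of 1.89. The difference in rhythm had edgeR adjusted p-values of 0.0028 in Set1 RNAi, 2.58e-05 in Trr RNAi and 3.06e-06 in Trx RNAi. Burdock{}74 (FBti0019593, X:6605531-6608495, in pigs) had 9.74, 6.74 and 8.05 CPM at ZT20 in Trr RNAi and 9.84, 9.49 and 12.4 CPM in Trx RNAi, against 66.0, 68.8 and 122 CPM in mCherry RNAi, and its rhythm differed in both (edgeR adjusted p = 2.42e-05 and 4.71e-06). In ‘412’ copy FBti0019086 (X:19136607-19143468, in RhoGAP18B on the opposite strand) no knockdown library exceeded 3.49 CPM, while mCherry RNAi peaked by day, with 2.14, 3.24 and 2.22 CPM at ZT0 and 8.48, 8.41 and 9.68 CPM at ZT8. Its rhythm differed in Set1, Trr and Trx RNAi (edgeR adjusted p = 0.000129, 6.69e-07 and 1.25e-05).

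Genes that act against these elements were examined as 2 lists. Of 29 tested genes of small RNA silencing, 8 rose and 2 fell in Trr RNAi and 6 rose and 3 fell in Trx RNAi, shares no higher than those of all features (28.5% higher in each, and 17.9% and 18.7% lower). In Set1 RNAi only arx, which encodes a partner of Piwi in the nucleus, passed and fell (-1.5). Higher in both were AGO3 (1.44 and 1.43), the helicase gene spn-E (2.47 and 2.32), fs(1)Yb (2.6 and 2.43), krimp (1.4 and 1.11), vls (1.12 and 1.31) and Hen1, a small RNA methyltransferase gene (1.15 and 1.28), and aub (1.08) and del (1.5) were higher in Trr RNAi. No mCherry RNAi library reached the filter's 1 CPM for fs(1)Yb (highest 0.681 CPM) or krimp (highest 0.833 CPM). Both met the filter through a knockdown alone and had to be higher there, so their rises are only described. Median levels of spn-E were 3.74 CPM in Trr RNAi and 3.16 CPM in Trx RNAi, against 0.568 CPM in mCherry RNAi. Lower in both were tej (-1.90 and -1.94) and rhi (-1.61 and -1.73), and SoYb was lower in Trx RNAi (-1.36). Of 31 tested heterochromatin genes 0 passed in Set1 RNAi by edgeR or DESeq2 (11 at an unadjusted p under 0.05), 4 fell in Trr RNAi and 3 fell and 1 rose in Trx RNAi, again below the shares of all features. Those lower in both were Hmt4-20 (-1.08 and -1.22), which methylates histone H4, CTCF (-1.60 and -1.58) and Kdm4B (-1.21 and -1.33). Kdm4A (-1.02) was lower in Trr RNAi, and LBR (1.06), a nuclear envelope gene, was higher in Trx RNAi.

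Other transposons counted in the same way moved less to one side than the LTR copies in Trr and Trx RNAi. Of 940 tested INE-1 copies, short elements no longer able to move, 249 fell and 262 rose in Trr RNAi (median -0.27), and 275 fell and 248 rose in Trx RNAi. The DNA transposon ‘1360’ had 61 lower and 39 higher copies of 200 in Trr RNAi (median -0.37) and 57 lower and 40 higher in Trx RNAi. For LINE-like retrotransposons, which lack terminal repeats, 217 of 512 fell and 109 rose in Trr RNAi (median -0.64), and 231 fell and 113 rose in Trx RNAi. Among LTR copies without roo, the shares that fell and that rose were both below those of LINE-like copies. Genes with an FBgn identifier had 1670 lower and 3634 higher of 12060 in Trr RNAi. In mCherry RNAi 64.5% of 380 rhythmic INE-1 copies, 48.6% of 72 rhythmic ‘1360’ copies and 37.4% of 179 rhythmic LINE-like copies peaked between ZT16 and ZT24, beside 85.4% of the LTR copies. Most of those LTR copies were roo, whose rhythmic copies all peaked in that window. In the other LTR families the share was lower and nearer to that of INE-1 copies. The differences between these groups of elements were not tested, since their copies are not independent samples.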

How the data were processed

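The authors trimmed reads with cutadapt 3.7 and Trimmomatic 0.39, aligned them with HISAT2 2.2.1 and SAMtools 1.17, and counted read pairs on exons of each feature with featureCounts (Subread 2.0.1) against BDGP6.46, per the file headers and the submitters' processing notes. The deposited values are raw counts, with no normalization and no strand, in a file for each library. Copies, hosts and neighbours were placed by the coordinates in those files, and a name table matched 23751 of 24278 identifiers. Set1 RNAi ZT20 replicate 1 was left out.

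Counts were analysed with edgeR 4.0.16 (quasi-likelihood test, TMM, Benjamini-Hochberg over 14767 features) in R 4.3.3, with DESeq2 1.42.0 as an alternative. Mean expression was fitted as 24 genotype and time groups, and rhythm as 24 h cosine and sine terms within each genotype. All 4 genotypes entered each fit. No 2 replicates held identical values, and the labels name no separate cultures beyond the replicate number, so p-values measure the spread between these samples. The members and gene lists were chosen with earlier results of these data known. Copies named in full were the 5 highest in CPM and 3 highest per kb, the 3 largest rises and falls per knockdown (at least 2 CPM in the higher genotype, same direction at all 6 times), the 2 with the lowest p for rhythm or change of rhythm, the 2 largest differences each way between Trr and Trx RNAi, and the longest tested copy of each family. On data simulated for Trr RNAi against mCherry RNAi over these features, the expression test found 100 of 100 changes of log2 2 and 95 of 100 of log2 1.5, and called 1 of 14567 unchanged features. The rhythm test found 181 of 200 rhythms of log2 2 from peak to trough and called 14 of 14567 flat features. The change test found 158 of 200 losses of such a rhythm and called 9 of 14567 flat features. Simulated features were otherwise flat over genotypes and times, without the wide shifts between the real genotypes. These rates therefore need not hold for the real data. Alternatives were other scalings, filters, sample sets, DESeq2, removal of 1 or 3 factors of unwanted variation (the study names such a step without its number of factors), a replicate block, and leaving out each replicate. No sequence of a copy was used here.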

Additional observations from a re-analysis of the deposited data

Results flagged for a closer look

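The daily rhythm of 13 of the 37 named copies differed between a knockdown and mCherry RNAi by the test of the difference itself, the edgeR interaction of genotype with the cosine and sine terms, at an adjusted p under 0.05.

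In Set1 RNAi it differed in 4 named copies. These were ‘297’ copy FBti0019333 (adjusted p = 8.98e-05), which reached 17.7, 9.38 and 17.1 CPM at ZT8 against 1.52, 1.09 and 1.18 CPM in mCherry RNAi, ‘412’ copy FBti0019086 (0.000129), roo{}34 (0.0028) and 3S18{}2922 (0.0336).

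In Trr RNAi it differed in 11. The lowest adjusted p-values were those of ‘412’ copy FBti0019086 (6.69e-07) and ‘17.6’ copy FBti0020227 (4.25e-06), both of which peaked by day in mCherry RNAi and had lower and flatter levels in Trr RNAi. The others were mdg1{}1636 (2.34e-05), Burdock{}74 (2.42e-05), roo{}34 (2.58e-05), roo{}850 (0.00142), 3S18{}2922 (0.00467), roo{}1708 (0.0154), roo{}1189 (0.0173), roo{}339 (0.033) and ‘297’ copy FBti0215278 (0.0418).

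In Trx RNAi it differed in 10. The lowest adjusted p-values were those of roo{}34 (3.06e-06) and Burdock{}74 (4.71e-06), both of which peaked at night in mCherry RNAi. The others were ‘412’ copy FBti0019086 (1.25e-05), ‘17.6’ copy FBti0020227 (0.000355), mdg1{}1636 (0.000368), roo{}1708 (0.00127), roo{}850 (0.00262), ‘412’ copy FBti0019582 (0.00716), ‘297’ copy FBti0019333 (0.0399) and ‘297’ copy FBti0215278 (0.0438). All these comparisons share the mCherry RNAi libraries.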

How the results depend on the processing

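Limits of these data are the loss of reads from near-identical copies, the lack of strand, stocks and platforms that cannot be told apart from genotype, and low depth on single copies (median 2.53 CPM). Of 1027 alternative values for 63 calls of named copies, 990 kept direction and call, 29 lost the call and 8 changed direction. These 8 were under removal of 3 factors: ‘17.6’ copy FBti0020227 in Trx RNAi (0.058), ‘297’ copy FBti0062103 in Trx RNAi (0.41), ‘297’ copy FBti0062353 in Trx RNAi (0.23), Burdock{}3264 in Trx RNAi (0.028), Burdock{}74 in Trr RNAi (0.17) and Trx RNAi (0.13), and mdg3{}1683 in Trr RNAi (0.19) and Trx RNAi (0.43). Removal of 3 factors also gave 89 copies in place of 200 called in Trr RNAi, 80 in place of 202 in Trx RNAi, 19 rhythmic in Trx RNAi in place of 7, and 36 changed rhythms in Set1 RNAi in place of 16; the cause was not tested. A filter of 1 CPM in every library, which tests fewer copies, gave 22 calls in Set1 RNAi in place of 53, 112 in Trr RNAi, 111 in Trx RNAi, 1 in place of 6 between Trr and Trx RNAi, and 55 rhythmic in Set1 RNAi and 3 in Trx RNAi. Fitting only the genotypes compared, with fewer samples, gave 6 rhythmic copies in Trr RNAi in place of 26 and 4 changed rhythms in Set1 RNAi and 32 in Trr RNAi in place of 69. Over copies outside gene spans, 9 in place of 5 families had a higher mean in Set1 RNAi.

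Leaving out 1 replicate gave 53 to 85 rhythmic copies in Set1 RNAi, 6 to 22 in Trr RNAi and 4 to 8 in Trx RNAi, and 0 to 10 changed rhythms in Set1 RNAi, 14 to 89 in Trr RNAi and 15 to 38 in Trx RNAi. Calls of mean expression ranged from 40 to 57 in Set1 RNAi, 198 to 209 in Trr RNAi, 196 to 206 in Trx RNAi and 5 to 5 between Trr and Trx RNAi. The labels do not say whether replicates of the same number share a batch. Over 105 pairs of same-numbered groups the correlation of deviations had a median of -0.0003, ranged from -0.46 to 0.57 and exceeded 0.1 in 13. At ZT0 it was 0.57, 0.24 and 0.17 between Set1 and mCherry RNAi in replicates 1, 2 and 3. Between Trr and mCherry RNAi it was -0.46, -0.097 and -0.25 at that time. With a replicate block, 52, 200 and 201 copies were called in Set1, Trr and Trx RNAi, 6 between Trr and Trx RNAi, 93, 26, 7 and 195 were rhythmic in Set1, Trr, Trx and mCherry RNAi, and 16, 63 and 83 rhythms changed in Set1, Trr and Trx RNAi. Chosen after seeing the data, leaving out mCherry RNAi ZT12 replicate 1 or Set1 RNAi ZT12 replicate 3, the libraries farthest from their groups, moved no count past 1.5 times (without the mCherry RNAi library, 109 copies were rhythmic in Set1 RNAi and 35 in Trr RNAi, and 90 rhythms changed in Trx RNAi).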
